A study of Mus musculus with 12 samples.

Results

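Transcripts of the cell cycle entry machinery were followed in mouse bone marrow-derived macrophages (BMDMs): the D-type cyclin genes Ccnd1, Ccnd2 and Ccnd3, the kinase genes Cdk4 and Cdk6, the CDK inhibitor genes Cdkn1a, Cdkn1b, Cdkn2c and Cdkn2d, and Rb1. They were taken by symbol from a table of read counts per gene, where they are 10 of 24421 symbols. All 10 had enough counts to be tested, among 11468 genes tested in all. The study asked how I-BET151 (iBET), which blocks the binding of BET family proteins to acetylated histones, alters the response of macrophages to immune complexes. Bone marrow of C57BL/6 mice was cultured with 100 ng/mL M-CSF over 5 days, the medium being renewed on day 3, and the cells were then exposed for 4 h to 5.0 µM iBET or to DMSO, with ovalbumin (Ova) or with ovalbumin bound by rabbit anti-ovalbumin IgG (immune complex, IC). This gave 4 groups of 3 libraries, named DMSO Ova, DMSO IC, iBET Ova and iBET IC, with 1 library from each of mice A, B and C in every group. All 4 groups had M-CSF and Ova, free or bound. The labels name no genetic change, and the ages of the mice are not given in the sources used here for these cultures. The labels describe drug and stimulus as added together and the cells as sorted into lysis buffer, whereas the study's methods place the drug first and the lysis in the culture plate, so both points are uncertain.

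D-type cyclins bind and activate CDK4 and CDK6, and the active kinases phosphorylate the retinoblastoma protein, which releases E2F factors to transcribe genes needed for DNA replication. In macrophages M-CSF is the growth factor that induces D-type cyclins and drives division. The INK4 inhibitors (p18 from Cdkn2c, p19 from Cdkn2d, p15 from Cdkn2b) bind CDK4 and CDK6 and block their pairing with cyclin D, while the Cip/Kip inhibitors (p21 from Cdkn1a, p27 from Cdkn1b) act on the cyclin E and cyclin A complexes of CDK2 and also bind cyclin D complexes. Cdkn1a is a classical target of the p53 protein.

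Library totals lay between 7.55 M and 17.4 M counts. The ribosomal precursor Rn45s took 1.41% to 7.83% of the counts in 11 libraries and 77.4% in mouse A's DMSO Ova library, which kept 1.77 M other counts against 7.25 M to 16.9 M elsewhere. In that library the 10 genes had between 15 and 854 counts each. The sample weights of limma's voom, which are lower for libraries that vary more about the fit, were lowest in mouse A's DMSO libraries. They were 0.267 in IC and 0.489 in Ova. Macrophage markers, with 10 of 10 tested, summed to 7020 to 8130 CPM (counts scaled to a common library size) in DMSO Ova, 7870 to 9340 in iBET Ova, 6700 to 7600 in DMSO IC and 8290 to 9100 in iBET IC. This sum was higher with iBET in each mouse in both arms, and its part in the results below was not tested. The sum does not describe each marker: Fcgr1, which is among them, was reported by the study as reduced in iBET-treated BMDMs. Erythroid markers summed to at most 0.338 CPM, lymphocyte markers to at most 4.59, dendritic cell markers to at most 1.55 and stromal markers to at most 3.08. Neutrophil and precursor markers, of which 5 of 10 were tested, summed to 10.8 to 56.6 CPM and were highest in mouse C in all 4 groups. In bulk RNA, fewer cells of a kind and less RNA per cell cannot be told apart.

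With iBET, 6 of the 10 genes changed, and they were the same 6 in Ova and in IC: Ccnd1 and Cdk6 fell, and Ccnd2, Ccnd3, Cdkn1a and Cdkn1b rose. Ccnd1 was 2.6-fold lower in Ova and 2.75-fold lower in IC, whereas Cdkn1a was 1.91-fold and 2.28-fold higher. Cdk4, Cdkn2c, Cdkn2d and Rb1 did not pass the test in either comparison. Among all genes tested, iBET called 31.3% in Ova (17.1% higher, 14.2% lower) and 34.8% in IC (19.0% higher, 15.8% lower). The median log2 fold change over the 10 genes was -0.09 in Ova and 0.22 in IC, beside 0.02 and 0 over all genes tested.

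IC against Ova called none of the 10 genes, in DMSO or in iBET. By edgeR's quasi-likelihood test 140 genes (1.22%) were called in DMSO and 40 (0.349%) in iBET among all tested. Without adjustment, 1 of the 10 genes had a p under 0.05 in DMSO (Cdk6) and 2 had one in iBET (Cdk6 and Cdkn1a). Among all 11468 genes tested, 1341 had such a p in DMSO and 860 in iBET. DESeq2 called 1 of the 10 in DMSO (Cdk6) and 0 in iBET, and its shares over all genes are not given here. The interaction (the response to IC under iBET less that under DMSO) called 0 of the 10 genes and 0.0% of all genes tested, with none of the 10 and 292 of all genes at an unadjusted p under 0.05. DESeq2 and limma also called none of the 10 genes for the interaction.

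**Figure D1:**
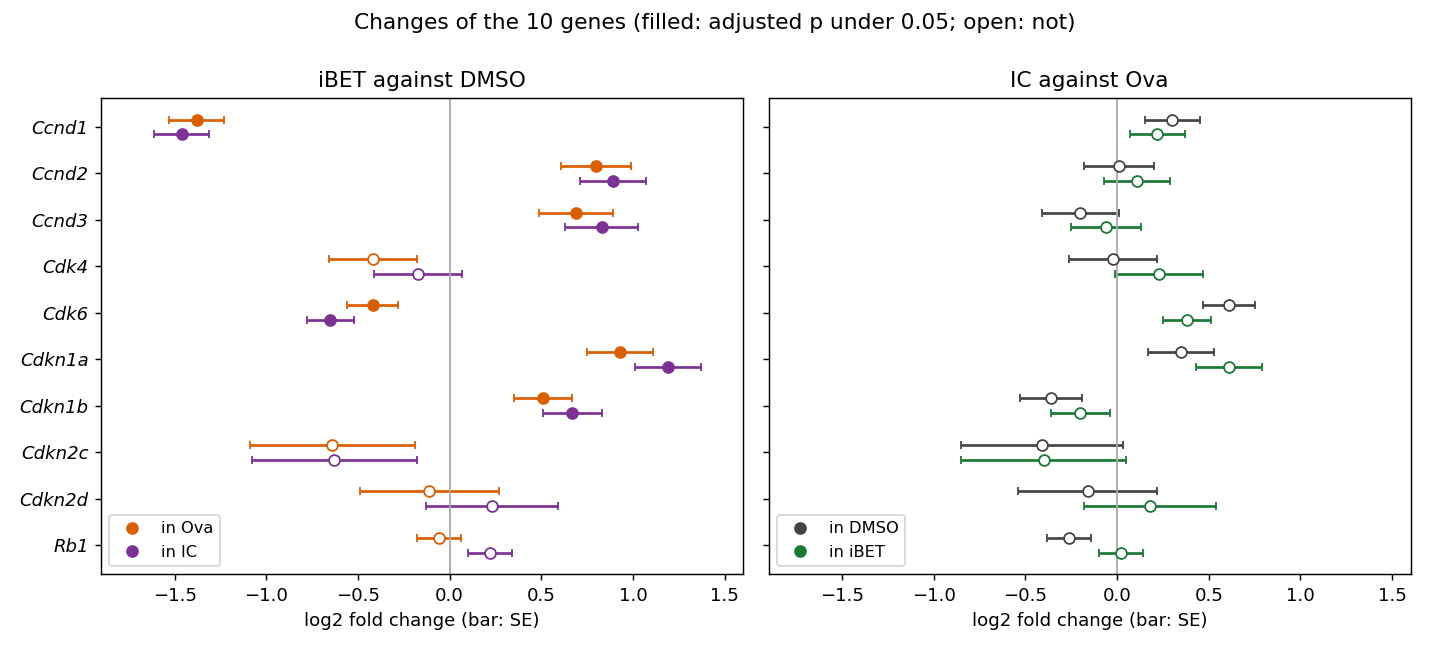
Log2 fold change of each of the 10 genes with its SE, for iBET against DMSO in Ova and in IC (left) and for IC against Ova in DMSO and in iBET (right). Filled points have an adjusted p under 0.05. Ccnd1 lies at -1.38 and -1.46 with iBET and Cdkn1a at 0.93 and 1.19, and no point is filled on the right.

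Promoter sequence was examined because 4 genes of one pathway rose together while others fell. RefSeq windows of 250 bases before the transcription start, on GRCm38.p6, were found for 7 of the 10 genes (Ccnd1, Ccnd2 and Rb1 were not matched). Ccnd3, Cdkn1a and Cdkn2c had 2 windows each. For these the window nearest an annotated principal start was used, and the other window is not described. The windows of the 4 genes that changed and of Cdk4, the partner kinase that did not pass the test, read 5′ to 3′ as follows, with the motif matches in capitals.
Ccnd3 promoter, chr17:47504801-47505050 (+): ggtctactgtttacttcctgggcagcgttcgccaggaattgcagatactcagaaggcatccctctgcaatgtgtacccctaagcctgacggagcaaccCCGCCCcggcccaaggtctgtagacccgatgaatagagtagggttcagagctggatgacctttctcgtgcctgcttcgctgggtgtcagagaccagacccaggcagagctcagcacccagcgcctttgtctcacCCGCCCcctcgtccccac
Cdk4 promoter, chr10:127063285-127063534 (+): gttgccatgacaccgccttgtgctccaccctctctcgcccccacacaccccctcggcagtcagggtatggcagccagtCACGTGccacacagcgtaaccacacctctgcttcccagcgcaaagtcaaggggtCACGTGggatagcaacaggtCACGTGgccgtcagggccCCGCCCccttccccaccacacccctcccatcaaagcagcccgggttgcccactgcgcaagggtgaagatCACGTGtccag
Cdk6 promoter, chr5:3343643-3343892 (+): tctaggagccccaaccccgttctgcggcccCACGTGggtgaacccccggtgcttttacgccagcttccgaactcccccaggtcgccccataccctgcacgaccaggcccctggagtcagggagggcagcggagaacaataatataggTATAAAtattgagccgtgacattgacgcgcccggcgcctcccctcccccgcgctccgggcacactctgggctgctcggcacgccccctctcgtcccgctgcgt
Cdkn1a promoter, chr17:29090729-29090978 (+): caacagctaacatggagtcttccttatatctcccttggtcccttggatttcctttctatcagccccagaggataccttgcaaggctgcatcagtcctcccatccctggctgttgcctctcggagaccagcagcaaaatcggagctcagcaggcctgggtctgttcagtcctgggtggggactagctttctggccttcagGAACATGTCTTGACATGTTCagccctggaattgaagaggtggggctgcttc
Cdkn1b promoter, chr6:134920151-134920400 (+): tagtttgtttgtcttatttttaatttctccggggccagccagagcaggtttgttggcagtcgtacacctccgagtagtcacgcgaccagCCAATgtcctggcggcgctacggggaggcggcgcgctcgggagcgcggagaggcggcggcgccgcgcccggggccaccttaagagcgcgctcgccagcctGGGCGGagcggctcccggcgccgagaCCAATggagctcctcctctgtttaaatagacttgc
The motifs searched on both strands were the GC box GGGCGG, the CCAAT box, the TATA box TATAAA, the E-box CACGTG and the p53 response element, the last with 1 mismatch allowed and chosen after the Cdkn1a sequence had been read. Over all 32851 windows of the table, 32.7% held a GC box, 33.8% a CCAAT box, 12.4% a TATA box and 6.02% an E-box. The Cdk4 window held 4 E-boxes and 1 GC box, and the Cdk6 window held 1 E-box and 1 TATA box, so both kinase genes had an E-box and none of the other 5 windows had one. Ccnd3 had 2 GC boxes, Cdkn1b had 2 CCAAT boxes and 1 GC box, and Cdkn2d had 3 GC boxes and 1 CCAAT box. In the Cdkn1a window used, the capitals mark a p53 element of 20 bases that ends 31 bases before the start site of that window. Such an element was found in 25 windows (0.0761%), and among the 7 only in that of Cdkn1a. The start site of this Cdkn1a window lies at the upstream end of the annotated gene, and which start these cells use was not tested. The Cdkn2c window held none of these motifs. The share of G and C ranged from 42.8% in Cdkn2c to 66.0% in Cdk6, beside a median of 52.4% over all windows.

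Ccnd1 encodes cyclin D1, a main target of growth factor signalling. On GRCm38/mm10 in GENCODE vM21 it is ENSMUSG00000070348.5 at chr7:144929931-144939925, minus strand. In DMSO Ova it stood at 439, 502 and 592 CPM in mice A, B and C, and in iBET Ova at 198, 163 and 230 CPM. In DMSO IC it stood at 596, 596 and 703 CPM and in iBET IC at 223, 210 and 255 CPM. Every iBET library was below every DMSO library. In Ova the mean went from 511 ± 77.0 to 197 ± 33.6 CPM (log2 fold change -1.38, SE 0.15, adjusted p 3.2e-05). In IC it went from 632 ± 61.8 to 229 ± 23.0 CPM (-1.46, SE 0.15, adjusted p 1.77e-05), both with the SD of n = 3. IC against Ova gave 0.30 under DMSO (SE 0.15, adjusted p 0.456) and 0.22 under iBET (SE 0.15, adjusted p 0.813). The iBET calls of Ccnd1 held in the 12 fits without 1 library, the 3 without 1 mouse and the 11 with another setting.

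Ccnd2 and Ccnd3 encode cyclins D2 and D3, which bind the same kinases. Ccnd2 (ENSMUSG00000000184.12) lies at chr6:127125162-127152193, minus strand. Its level was 41.6, 40.7 and 60.4 CPM in DMSO Ova and 85.7, 70.6 and 94.7 CPM in iBET Ova (mice A, B and C). In DMSO IC it was 43.8, 41.2 and 60.5 CPM, and in iBET IC 84.6, 86.1 and 99.4 CPM. All 6 iBET libraries were above all 6 DMSO libraries, and mouse C was highest in all 4 groups. Ccnd2 rose with iBET by 0.80 on the log2 scale in Ova (SE 0.19, adjusted p 0.00616) and by 0.89 in IC (SE 0.18, adjusted p 0.00241). With IC its change was 0.01 (SE 0.19) in DMSO and 0.11 (SE 0.18) in iBET. The iBET call was lost without mouse A (adjusted p 0.113 in Ova, 0.0619 in IC) and, in Ova, without mouse B (0.0644).

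Ccnd3 (ENSMUSG00000034165.16) lies at chr17:47505051-47599691, plus strand. Its level was 18.0, 12.2 and 15.5 CPM in DMSO Ova and 25.3, 18.2 and 27.8 CPM in iBET Ova. Values in IC were 12.9, 10.6 and 15.0 CPM with DMSO and 22.5, 20.1 and 26.0 CPM with iBET. The lowest iBET value, in Ova in mouse B, lay just above the highest DMSO value, in Ova in mouse A. Ccnd3 rose with iBET by 0.69 in Ova (SE 0.20, adjusted p 0.0217) and by 0.83 in IC (SE 0.20, adjusted p 0.00586). The call in IC held without any 1 library or mouse. In Ova it was lost without the DMSO library of mouse B (adjusted p 0.107) or C (0.0508), without the iBET library of mouse A (0.0689) or C (0.0801), and without mouse A (0.0556), B (0.0607) or C (0.138). It was also lost with the compared groups fitted alone (0.0514).

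Because transcripts differ in length, the D-type cyclins were compared with each other as CPM per kb of the longest annotated transcript. On that scale Ccnd1 made up 91.3%, 93.3% and 92.1% of the summed D-type cyclin level in DMSO Ova and 72.5%, 73.3% and 73.5% in iBET Ova. In IC its share was 94.0%, 94.5% and 93.3% with DMSO and 75.7%, 74.9% and 75.2% with iBET. The iBET and DMSO ranges of this share were far apart, and the 3 mice differed little. The share of Ccnd2 was 5.05% ± 0.546 in DMSO Ova, 18.4% ± 0.464 in iBET Ova, 4.23% ± 0.465 in DMSO IC and 17.5% ± 0.616 in iBET IC (SD, n = 3). The share of Ccnd3 was 2.72% ± 0.787, 8.51% ± 0.533, 1.84% ± 0.189 and 7.25% ± 0.277 in the same order. The summed level of the 3 genes was 148 ± 21.9 CPM per kb in DMSO Ova, 72.0 ± 12.1 in iBET Ova, 180 ± 18.7 in DMSO IC and 81.5 ± 8.12 in iBET IC. Ccnd1 thus remained the most abundant of the 3 with iBET, and the sum was lower although Ccnd2 and Ccnd3 rose. With all annotated exons of a gene joined as its length, the share of Ccnd1 was 94.1% ± 0.728, 78.3% ± 0.457, 95.3% ± 0.478 and 80.0% ± 0.41. That of Ccnd2 was then 4.36%, 16.7%, 3.63% and 15.7%. The share of Ccnd3 depended most on the length, at 1.54%, 5.04%, 1.03% and 4.27% with joined exons.

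**Figure D2:**
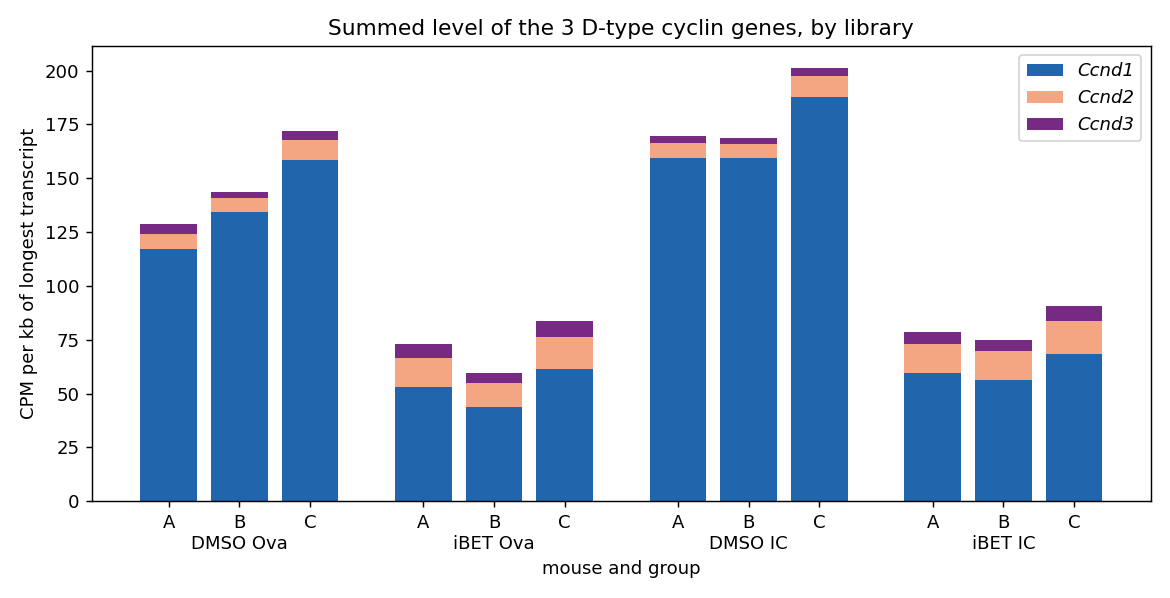
Summed level of Ccnd1, Ccnd2 and Ccnd3 in CPM per kb of the longest transcript, 1 bar per library, by group and mouse. The 6 DMSO bars lie between 129 and 201 and the 6 iBET bars between 59.4 and 90.6, with Ccnd1 as the largest segment in each.

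Cdk6 and Cdk4 encode the kinase partners of the D-type cyclins. Cdk6 (ENSMUSG00000040274.11) lies at chr5:3341485-3531008, plus strand. Its level was 86.3, 85.5 and 113 CPM in DMSO Ova and 72.0, 68.3 and 73.3 CPM in iBET Ova. In DMSO IC it was 126, 157 and 153 CPM, and in iBET IC 87.4, 84.4 and 106 CPM. The DMSO IC libraries were the highest 3 of the 12 and the iBET Ova libraries the lowest 3. With iBET Cdk6 fell by 0.42 in Ova (SE 0.14, adjusted p 0.0324) and by 0.65 in IC (SE 0.13, adjusted p 0.00257). The Ova call was lost without the DMSO library of mouse C (adjusted p 0.161), without the iBET library of mouse A (0.0745), B (0.103) or C (0.0626), and without mouse B (0.151) or C (0.201). The IC call was lost without mouse B (0.0951).

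Under DMSO, Cdk6 was also the gene of the 10 with the smallest p for IC against Ova. The log2 fold change was 0.61 under DMSO (SE 0.14, adjusted p 0.0551) and 0.38 under iBET (SE 0.13, adjusted p 0.473), with the IC libraries above the Ova libraries in 3 of 3 mice and no overlap in either arm. With mouse as a block (a term for each mouse in the model) in edgeR the adjusted p in DMSO was 0.00937 and that in iBET 0.19. The adjusted p in DMSO was also under 0.05 in DESeq2 (0.011) and without the DMSO Ova library of mouse C (0.0316) or the DMSO IC library of mouse A (0.035). The difference between the arms was -0.23 (SE 0.19, adjusted p 1.0), so a smaller IC response under iBET was not shown.

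Cdk4 (ENSMUSG00000006728.12) lies at chr10:127063534-127067920, plus strand. Its level was 25.7, 38.0 and 46.7 CPM in DMSO Ova and 28.6, 26.4 and 29.7 CPM in iBET Ova. Values in IC were 24.7, 37.4 and 49.8 CPM with DMSO and 32.9, 29.2 and 37.3 CPM with iBET. The groups overlapped: in mouse A the iBET value was above the DMSO value in both arms, and in mice B and C it was below. Both DMSO libraries of mouse A had low sample weights. With 1 library per mouse and group, a difference of the mouse and one of its libraries cannot be told apart. For iBET against DMSO it gave -0.42 under Ova (SE 0.24, adjusted p 0.207, approximate 95% interval -0.89 to 0.05) and -0.17 in IC (SE 0.24, adjusted p 0.607, interval -0.63 to 0.29). The adjusted p in Ova was under 0.05 without mouse A (0.0195), with 1 surrogate variable in the model (0.00398) and in limma's voom with sample weights (0.014). In IC it was under 0.05 with 1 surrogate variable (0.0327).

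Cdkn1a encodes p21. It is ENSMUSG00000023067.14 at chr17:29090976-29100727, plus strand, and of its 2 promoter windows the 1 that was used holds the p53 element. In DMSO Ova it stood at 105, 165 and 133 CPM in mice A, B and C, and in iBET Ova at 304, 255 and 216 CPM. In DMSO IC it stood at 136, 206 and 175 CPM, and in iBET IC at 397, 416 and 366 CPM. All 6 iBET libraries were above all 6 DMSO libraries, and the iBET IC libraries were the highest 3. In Ova the mean went from 134 ± 30.0 to 258 ± 44.0 CPM (log2 fold change 0.93, SE 0.18, adjusted p 0.00228). In IC it went from 172 ± 35.0 to 393 ± 25.5 CPM (1.19, SE 0.18, adjusted p 0.00037; SD, n = 3). By mouse the difference was 1.53, 0.62 and 0.70 in Ova and 1.54, 1.01 and 1.06 in IC, largest in mouse A in both arms. The DMSO libraries of mouse A had the lowest sample weights. The iBET calls held in the same 12, 3 and 11 other fits.

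IC against Ova gave 0.35 for Cdkn1a under DMSO (SE 0.18, adjusted p 0.517) and 0.61 under iBET (SE 0.18, adjusted p 0.323). The value was above 0 in 3 of 3 mice in each arm. The iBET value had an adjusted p of 0.017 without mouse A and of 0.0424 when its 2 groups were fitted alone. The interaction was 0.26 (SE 0.26, adjusted p 1.0).

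Cdkn1b encodes p27, which is largely controlled at the level of the protein. It is ENSMUSG00000003031.14 at chr6:134920401-134925513, plus strand. Its level was 11.3, 14.5 and 16.4 CPM in DMSO Ova and 19.4, 21.2 and 21.3 CPM in iBET Ova. Values in IC were 13.3, 9.68 and 10.8 CPM with DMSO and 16.6, 20.4 and 16.9 CPM with iBET. Every iBET library was above every DMSO library. Cdkn1b rose with iBET by 0.51 in Ova (SE 0.16, adjusted p 0.034) and by 0.67 in IC (SE 0.16, adjusted p 0.00677). The Ova call was lost without the DMSO library of mouse A (adjusted p 0.104) or B (0.0868), without the iBET library of mouse A (0.0536), B (0.0868) or C (0.0817), and without any 1 mouse (0.0508 to 0.199). It was also lost in DESeq2 (0.059), with the mouse block in DESeq2 (0.0567) and with the compared groups fitted alone (0.071). The IC call was lost without mouse B (0.187) or C (0.061).

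Cdkn2c and Cdkn2d encode the INK4 inhibitors p18 and p19. Cdkn2c (ENSMUSG00000028551.14) lies at chr4:109660876-109667189, minus strand, and Cdkn2d (ENSMUSG00000096472.2) at chr9:21288410-21291407, minus strand. Cdkn2c stood at 14.4, 12.1 and 28.2 CPM in DMSO Ova and at 7.87, 10.0 and 18.5 CPM in iBET Ova. In DMSO IC it stood at 8.67, 10.9 and 22.7 CPM, and in iBET IC at 7.31, 8.82 and 11.5 CPM. Mouse C was highest in all 4 groups, and the groups overlapped. For iBET against DMSO the log2 fold change was -0.64 under Ova (SE 0.45, adjusted p 0.314) and -0.63 under IC (SE 0.45, adjusted p 0.304), below 0 in 3 of 3 mice in each. With mouse as a block, which takes out the level of each mouse, Cdkn2c fell by 0.55 (adjusted p 0.0287) and by 0.51 (adjusted p 0.0325). With the block in edgeR, 7 of the 10 genes were thus called in each arm (38.3% of all genes in Ova, 42.1% in IC), the 6 named above among them. With the block in DESeq2, Cdkn1b in Ova was not called (adjusted p 0.0567).

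Cdkn2d ranged from 3.83 to 10.7 CPM over the 12 libraries, with mouse C highest in all 4 groups. For iBET against DMSO it gave -0.11 under Ova (SE 0.38, adjusted p 0.848) and 0.23 under IC (SE 0.36, adjusted p 0.657), with the groups overlapping. Rb1 (ENSMUSG00000022105.6, chr14:73183673-73325822, minus strand), the substrate of the kinases, ranged from 38.3 to 57.5 CPM. It gave -0.06 under Ova (SE 0.12, adjusted p 0.739, approximate 95% interval -0.30 to 0.18) and 0.22 under IC (SE 0.12, adjusted p 0.186, interval -0.02 to 0.45), the narrowest intervals of the 10 genes.

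**Figure D3:**
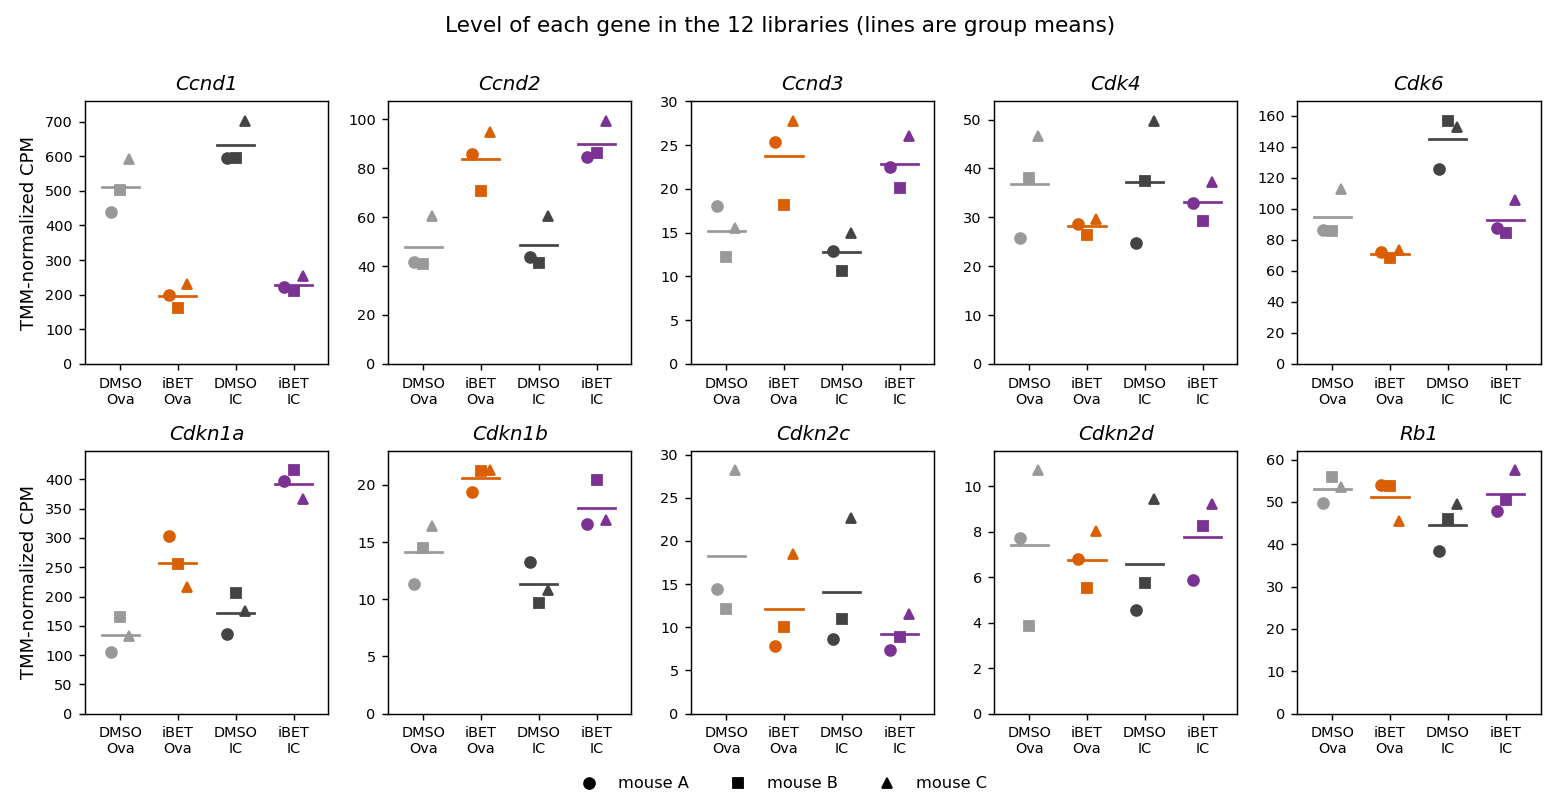
Level of the 10 genes in each of the 12 libraries in TMM-normalized CPM, with a panel per gene, an axis from 0, symbols for mice A, B and C and lines for group means. The iBET libraries lie apart from the DMSO libraries for Ccnd1 (163 to 255 against 439 to 703 CPM) and Cdkn1a (216 to 416 against 105 to 206 CPM), and mouse C is highest in each group for Cdkn2c.

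The levels of the 10 genes per kb of transcript had Ccnd1 first and Cdkn1a second with DMSO and the reverse order with iBET. Ccnd1 stood at 137 ± 20.6 CPM per kb in DMSO Ova, 52.6 ± 8.98 in iBET Ova, 169 ± 16.5 in DMSO IC and 61.4 ± 6.16 in iBET IC. Cdkn1a stood at 64.6 ± 14.4, 124 ± 21.1, 82.9 ± 16.8 and 189 ± 12.3 CPM per kb in the same order (SD, n = 3). The libraries of these 2 genes did not overlap in any group, nor did those of the gene in the second place and Cdk4 in the third (13.7 to 18.2 CPM per kb as group means). From the fourth place down the group means were at most 14.2 CPM per kb, and most neighbours in the order overlapped. Cdkn1b, Cdkn2c, Cdkn2d and Ccnd3 held the lower places, with group means from 2.47 to 7.38 CPM per kb. The first and second places were the same with joined exons as the length.

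The mice differed in several of these genes in the same way in every group. Mouse C was highest in 4 of 4 groups for Ccnd1, Ccnd2, Cdk4, Cdkn2c and Cdkn2d, and the mouse means spanned 1.05 on the log2 scale for Cdkn2c, 0.71 for Cdkn2d and 0.52 for Cdk4. For Cdkn1b they spanned 0.10 and for Rb1 0.12. The summed level of 20 genes of S phase and mitosis was also highest in mouse C in all groups, at 2640 CPM against 1630 and 1760 in DMSO Ova, 1970 against 1090 and 1220 in iBET Ova, 2400 against 1360 and 1430 in DMSO IC, and 1770 against 1050 and 1200 in iBET IC. In each mouse that sum was lower with iBET than with DMSO in both arms. The part of the dividing share of the culture in the changes of the 10 genes was not tested.

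Exons of 7 of the 10 genes share bases with an annotated gene on the opposite strand: Ccnd1 with LTO1, Ccnd2 with Gm43126 and 9330179D12Rik, Ccnd3 with Bysl, Cdk4 with Tspan31, Cdk6 with Gm17590, Cdkn1a with AC167363.2 and Rb1 with Rcbtb2 and Lpar6. The use of strand in the counting is not given in the sources used here, so reads of the partners may be included in the values of these 7 genes. Cdkn1b, Cdkn2c and Cdkn2d have no such partner. Of the list genes named below, Cdkn1c, E2f5, Rbl2 and Ccne2 have one.

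Genes around this pathway were described by lists. Their counts with iBET stand beside 31.3% of all genes called in Ova (17.1% higher, 14.2% lower) and 34.8% in IC (19.0% higher, 15.8% lower). With mouse as a block in edgeR these shares were 38.3% in Ova and 42.1% in IC. Whether a list differs from these shares was not tested. The list of other CDK inhibitors held further Cip/Kip and INK4 genes and also Cdkn3, which is of neither family. Of its genes 3 of 4 were tested (Cdkn2a had too few counts). Cdkn2b, which encodes p15, an INK4 inhibitor known from growth arrest by TGF-beta, rose with iBET by 2.11 in Ova (SE 0.30, adjusted p 0.000214) and by 2.81 in IC (SE 0.29, adjusted p 1.82e-05). Its levels were low, at 1.03, 1.53 and 0.829 CPM in DMSO Ova against 5.79, 4.08 and 5.3 in iBET Ova, and 0.926, 0.66 and 0.953 in DMSO IC against 5.07, 6.2 and 7.07 in iBET IC. Every iBET library was above every DMSO library, although the DMSO libraries held only 2 to 20 counts each. The iBET libraries held 37 to 95 counts, so the gene passed the filter on low counts mainly through the groups where it was high. Its rise is therefore not independent of that filter. Cdkn3 had -1.03 (SE 0.54, adjusted p 0.175) in Ova and -0.63 (SE 0.54, adjusted p 0.393) in IC, and was called in Ova with mouse as a block (adjusted p 0.0426). Cdkn1c had 0.02 and -0.08 (adjusted p 0.974 and 0.859).

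The pocket proteins and E2F factors (12 of 12 tested) are the partners and relatives of Rb1. With iBET 1 rose and 3 fell in each arm, with a median log2 fold change of -0.43 in Ova and -0.41 in IC. With mouse as a block 1 rose and 6 fell in Ova, and 1 rose and 8 fell in IC. E2f2, an activating E2F, fell by 2.21 in Ova (SE 0.42, adjusted p 0.00213), from 22.2 ± 8.45 to 4.98 ± 2.39 CPM, and by 1.95 in IC (SE 0.42, adjusted p 0.00414), from 14.5 ± 6.23 to 3.88 ± 1.27 CPM (SD, n = 3). E2f5, which works mostly as a repressor with the pocket proteins, rose by 1.05 and 1.16 (adjusted p 0.000455 and 0.00015), and Rbl2, the pocket protein p130, fell by 0.54 and 0.47 (adjusted p 0.00533 and 0.00978). E2f3 fell in Ova (-0.43, adjusted p 0.0467) and had -0.34 in IC (adjusted p 0.0898; with mouse as a block 0.0447).

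Of the other interphase cyclins and CDKs (12 of 12 tested), 1 rose and 2 fell with iBET in Ova and 1 rose and 3 fell in IC, with medians of -0.40 and -0.50. Under the mouse block 5 fell in Ova and 6 in IC, beside the 1 that rose. The gene that rose was Ccng2, a cyclin associated with cell cycle exit, by 0.92 (SE 0.17, adjusted p 0.0015) and 1.11 (SE 0.17, adjusted p 0.00037). Ccne2, a cyclin partner of CDK2, fell by 1.04 and 1.24 (adjusted p 0.0396 and 0.0169), and Cdc25a, the phosphatase that activates CDK2, by 0.38 and 0.73 (adjusted p 0.0419 and 0.000759). Mnat1, a part of the CDK-activating kinase, fell in IC (-0.47, adjusted p 0.0371) and had -0.14 in Ova (adjusted p 0.54). Ccng2 was the 1 gene of this list called with IC in DMSO, where it fell by 0.85 (SE 0.18, adjusted p 0.0382). In iBET it had -0.66 (SE 0.16, adjusted p 0.172; with mouse as a block 0.0413).

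Genes for the turnover of cyclin D, p21 and p27 (14 of 14 tested) had 5 that rose and 0 that fell with iBET in each arm, with medians of 0.22 and 0.31. Under the mouse block 5 rose and 2 fell in Ova, and 6 rose and 1 fell in IC. Gsk3b, the kinase that marks cyclin D1 for degradation, rose by 0.49 and 0.62 (adjusted p 0.00203 and 0.00031). Cul4a, a ubiquitin ligase scaffold, rose by 0.54 and 0.47, Fbxo31 by 0.74 and 0.50, and Ambra1, the substrate receptor for D-type cyclins, by 0.35 and 0.44 (adjusted p at most 0.0205 for the 3 genes). None of this list was called with IC.

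In the p53 pathway 17 of 18 genes were tested (Perp had too few counts). Cdkn1a, which is described above, is not among the 18. With iBET 6 rose in each arm and 1 fell in Ova and 2 in IC, with medians of 0.23 and 0.16 (with mouse as a block 6 rose in each arm, 1 fell in Ova and 4 fell in IC). Pmaip1, a pro-apoptotic target, rose by 1.33 and 1.38 (adjusted p 4.57e-05 and 2.24e-05), Sesn2, a stress-induced inhibitor of mTORC1 signalling, by 1.52 and 1.58 (adjusted p 7.85e-05 and 3.3e-05), and Trp53inp1 by 1.21 and 1.47 (adjusted p 0.000551 and 0.000112). Mdm2, which is both a p53 target and the ligase that degrades p53, fell by 1.26 (SE 0.17, adjusted p 0.000152), from 550 ± 88.3 to 229 ± 22.5 CPM in Ova, and by 1.39 (SE 0.17, adjusted p 6.59e-05), from 790 ± 167 to 302 ± 43.9 CPM in IC. The list held targets in both directions, with Mdm2 opposite to Cdkn1a in each of the 3 mice. The part of the p53 protein in these changes was not tested. Sesn1 rose with iBET by 0.76 and 1.14 (adjusted p 0.00487 and 0.000269) and was the 1 gene of the list called with IC in DMSO, where it fell by 0.89 (SE 0.17, adjusted p 0.0305). With mouse as a block Mdm2 was called there too, as higher with IC (adjusted p 0.0208).

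Of the 20 genes of S phase and mitosis, all tested, 0 rose and 5 fell with iBET in Ova, and 0 rose and 4 fell in IC, with medians of -0.80 and -0.64. With mouse as a block 16 fell in Ova and 14 in IC, and 0 rose. Those named are subunits of the replicative helicase. Mcm6 fell by 0.91 and 0.89 (adjusted p 0.00611 and 0.00604), Mcm3 by 0.97 and 0.91 (0.0162 and 0.0187), Mcm4 by 0.80 and 0.70 (0.0238 and 0.0367) and Mcm2 by 0.80 and 0.88 (0.0495 and 0.029). The other 15 genes in Ova and 16 in IC did not pass the test without the block. With IC none of the 20 was called in either arm, and 1 (Bub1b, named after its values were seen) was called as lower in DMSO with the block.

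**Figure D4:**
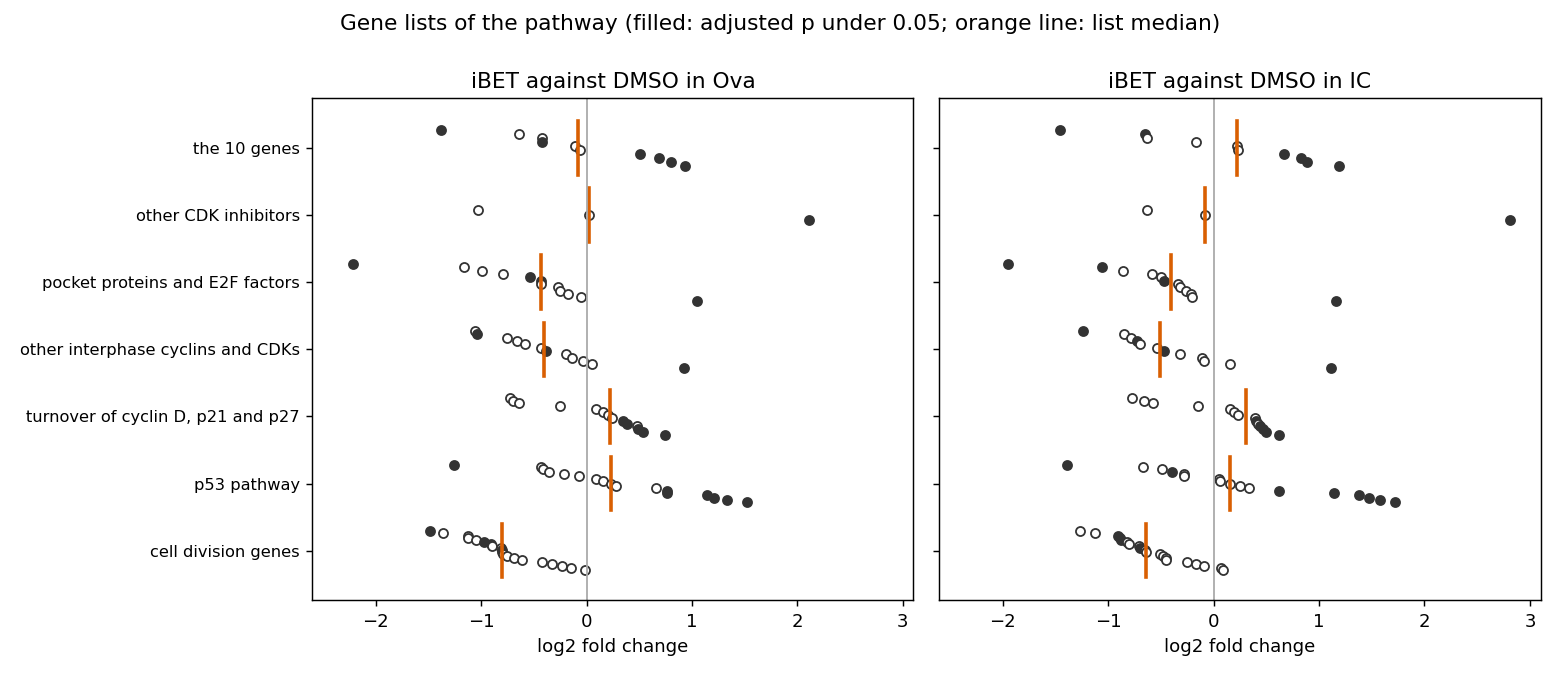
Log2 fold change with iBET in Ova (left) and in IC (right) for the 10 genes and for the tested genes of 6 lists, 1 point per gene, filled where the adjusted p is under 0.05, with the median of each list as a line. Cdkn2b lies farthest to the right at 2.11 and 2.81, E2f2 farthest to the left at -2.21 and -1.95, and the medians of the cell division genes lie at -0.80 and -0.64. Cdkn2b passed the filter on low counts mainly through its iBET libraries.

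For the genes that changed with iBET, the 2 genes with the most similar pattern over the 12 libraries were found by the root mean square difference of centred log2 CPM, where 0 is the same pattern. The nearest to Ccnd1 were Ifit1 (0.14), an interferon-induced gene, and Rtn4ip1 (0.17), and to Cdk6 Xpo4 (0.10) and Plxna1 (0.13). Those nearest to Ccnd2 were Dtx2 (0.14) and Phc2 (0.15), and to Ccnd3 Cdc42ep3 (0.15) and Nudt4 (0.15). Cdkn1a had BC022687 and Rnf185 (both 0.19), and Cdkn1b had Hibch (0.11) and Pgm3 (0.12). None of these genes belongs to the lists above.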

How the data were processed

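RNA was extracted with an RNeasy Plus Micro kit and libraries were made with a SMARTer pico input kit. The authors trimmed reads with Trim Galore, aligned them to mm10 with HISAT2 and made counts per gene with featureCounts. The annotation and the use of strand are not given in the sources used here. The deposited counts were analysed. The authors also deposited a normalized signal, which equalled the counts divided by DESeq2 size factors (largest relative gap 5.11e-15) and served only as an alternative.

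In edgeR 4.0.16 (R 4.3.3), filterByExpr (minimum count 10) kept 11468 genes. After TMM normalization, 1 robust quasi-likelihood model of the 4 groups was fitted to all 12 libraries and gave 5 contrasts. Two-sided p-values were adjusted over these genes by Benjamini-Hochberg, and calls were made below 0.05. SE is the size of the log2 fold change over the root of F, and intervals are 1.96 SE to each side. The procedure was also run on simulated counts for iBET against DMSO in IC. These were drawn without differences between mice, so the run cannot show how the model fares with paired libraries. CPM are TMM-normalized, and values per mouse are log2 CPM differences (prior count 2). Lengths and positions came from GENCODE vM21 (GRCm38/mm10) and promoter windows from RefSeq (GRCm38.p6). P-values of the main model measure the spread of libraries about their group means. That model has no term for mouse, although the same 3 mice supplied every group.

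Alternatives were DESeq2 1.42.0, its size factors in edgeR, removal of Rn45s, other filters on low counts, mouse as a block, 1 surrogate variable (sva 3.50.0), compared groups alone, limma 3.58.1 on log2 of the normalized signal plus 1, voom with sample weights, a threshold of 0.01 and the omission of each library and mouse. Libraries were paired by the mouse named in the labels. Deviations from group means correlated at a median of 0.263 (-0.0725 to 0.542) over 18 same-mouse pairs and -0.134 (-0.499 to 0.271) over 36 other pairs across groups.

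The members and lists were chosen with earlier results of these data known. The text names all 10 members, up to 4 genes of each list with the smallest adjusted p over the iBET contrasts, any list gene called in an IC contrast or the interaction, and the 2 nearest genes to each called member.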

Additional observations from a re-analysis of the deposited data

How the results depend on the processing

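Over the members, 1340 values under other settings were set against the reported ones: 1225 kept their direction and side of the threshold, 32 were no longer called, 23 became called, and 60 changed sign, none of which was called under either setting. The cause was not tested. The count of members called for IC against Ova in DMSO, 0 as reported, was 1 (Cdk6) in DESeq2, without a filter, with the mouse block in edgeR and in DESeq2, with 1 surrogate variable, in voom, and with the block after leaving out mouse A's DMSO Ova library (a setting added after seeing the data). For IC against Ova in iBET it was 1 (Cdkn1a) with the block in DESeq2, with compared groups alone and in voom. Leaving out a library or mouse gave 0 to 1 in both. Over all genes tested, IC against Ova called 315 genes (2.75%) in DMSO and 85 (0.741%) in iBET with the block in edgeR, beside 1.22% and 0.349% without it. For iBET in Ova the count of 6 was 3 at an adjusted p under 0.01 and 2 to 6 with a library or mouse left out (4 without mouse A, namely Ccnd1, Cdk6, Cdkn1a and Cdk4, of which Cdk4 is not among the 6, then 2 without B and 3 without C). For iBET in IC it was 5 without mouse A or C and 4 without B. The lowest count of a member was 15, for Cdkn2d in that library of mouse A. Beside the blocked values given with the results, the block in edgeR changed no call of a member.

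The sign changes were as follows. In voom the Ccnd1 interaction was 0.05, Ccnd3 with IC in iBET 0.08, the Cdkn2c interaction -0.005, Cdkn2d with IC in DMSO 0.18 and with iBET in Ova 0.03, and Rb1 with IC in iBET -0.03. With the block, Cdkn2d with iBET in Ova was 0.03. With the block and without mouse A's DMSO Ova library, the Ccnd1 interaction was 0.03, Ccnd2 with IC in DMSO -0.04, the Cdkn2c interaction -0.0002, and Cdkn2d 0.02 with IC in DMSO and 0.10 with iBET in Ova. The Cdkn2c interaction was -0.001 in DESeq2 and -0.14 with 1 surrogate variable, where Rb1 with IC in iBET was -0.02. Cdk4 with IC in DMSO was 0.01 on the normalized signal.

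With a library or mouse left out, the range for IC in DMSO was -0.18 to 0.24 for Ccnd2, -0.29 to 0.20 for Cdk4, -0.94 to 0.12 for Cdkn2c and -0.55 to 0.40 for Cdkn2d. For IC in iBET it was -0.002 to 0.20 for Ccnd2, -0.22 to 0.06 for Ccnd3, -0.64 to 0.03 for Cdkn2c and -0.13 to 0.15 for Rb1. For iBET in Ova it was -0.51 to 0.45 for Cdkn2d and -0.17 to 0.02 for Rb1, and for iBET in IC -0.43 to 0.10 for Cdk4 and -0.01 to 0.59 for Cdkn2d. For the interaction it was -0.20 to 0.04 for Ccnd1, -0.13 to 0.29 for Ccnd2, -0.01 to 0.30 for Ccnd3, -0.02 to 0.43 for Cdkn1b, -0.52 to 0.54 for Cdkn2c and -0.22 to 0.74 for Cdkn2d.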
